A study of Rattus norvegicus with 8 samples.

Results

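Hcn2, Hcn3 and Hcn4 encode pore-forming subunits of the hyperpolarization-activated, cyclic nucleotide-gated (HCN) channels, and Pex5l encodes TRIP8b, their auxiliary subunit in brain. The 4 genes were taken by their NCBI GeneIDs (114244, 114245, 59266 and 286937 in this order) from the 22601 genes measured in each library, without use of any expression value, and all 4 were among the 15593 genes with a mean level high enough to be tested. Other HCN genes were not analysed here, so that shares below are shares of the sum of Hcn2, Hcn3 and Hcn4 only.

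HCN channels open when the membrane is hyperpolarized and carry an inward current of sodium and potassium ions, called Ih in neurons and the funny current in the heart, where it drives pacemaking. Binding of cyclic AMP to the intracellular end of a subunit makes the channel open more easily, and this effect is strong in HCN2 and HCN4 and weak or absent in HCN3. In hippocampal pyramidal cells Ih sets the resting potential and input resistance and dampens the summation of dendritic inputs. TRIP8b binds the channels, directs them to the surface and to dendrites, and opposes the effect of cyclic AMP. In the annotation deposited with the values, the 3 channel genes shared 14 Gene Ontology terms, among them cAMP binding and voltage-gated potassium channel activity, and regulation of membrane potential was the only term shared by all 4 genes.

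The study asked what kindling by pentylenetetrazole (PTZ) and later treatment with the compound Q808, an anticonvulsant candidate, did to the hippocampal transcriptome. PTZ blocks GABA-A receptors and so provokes seizures, and repeated low doses kindle the brain, so that seizures become stronger with the same dose. The rats were wild type Wistar animals of 180 to 220 g, with no age in the labels, and each library came from the hippocampi of 1 rat. The Con. group (3 libraries) received saline and then the solvent of Q808. The PTZ group (3 libraries) was injected with 35 mg/kg PTZ every 48 h during 28 days, 14 times, with 60 mg/kg on the last of these days, and then had the solvent of Q808 for 28 days. The Q808 group (2 libraries) had the same PTZ injections and then 30 mg/kg Q808 by gavage on each of 28 days. Rats of the PTZ and Q808 groups were given PTZ once more for the final seizure test before the tissue was taken, so that effects of kindling and of this last dose cannot be told apart.

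Levels are given in FPKM (sequenced fragments divided by transcript length and by the mapped fragments of the library), which are scaled by gene length and can be set side by side between genes. The FPKM of nearly all genes were whole multiples of the value of 1 read, which gave 12129906 to 16868487 reads on genes per library and the reads behind each value. Libraries of all 3 groups also differed in their tissue markers. The mean log2(FPKM + 0.1) of 8 striatum marker genes was 5.94 to 7.10 in Con.-3, PTZ-3 and Q808-1 and 1.38 to 2.19 in the other 5 libraries. Markers of dentate granule cells, a defining cell type of hippocampus, were at 1.97 to 2.50 in those 3 libraries and 3.65 to 4.05 in the other 5, and the oligodendrocyte list was at 8.44 to 9.21 against 7.05 to 7.77. Within the dentate list, Prox1 and C1ql2 were lower in each of those 3 libraries than in the other 5, and Dsp and Stxbp6 overlapped. Calb1 was lowest in Q808-1 at 26.0 FPKM but highest in PTZ-3 (112) and Con.-3 (87.7), against 66.7 to 87.0 FPKM in the other 5. The CA1 marker Fibcd1 was listed at 0 in PTZ-3, but it was at 0.340 FPKM or less in every library. Results are therefore given for all libraries and within these 2 sets of libraries, where the set of 3 holds 1 library per group. In bulk tissue, fewer cells of a type and less RNA per cell cannot be told apart.

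The 4 genes stood in the same order in 8 of 8 libraries, with Hcn2 highest, followed by Pex5l, Hcn3 and Hcn4. Mean FPKM over all libraries were 49.7 for Hcn2, 34.5 for Pex5l, 4.50 for Hcn3 and 0.484 for Hcn4. Among the 15593 genes tested, Hcn2 took place 1559 from the highest mean FPKM, Pex5l place 2318, Hcn3 place 9213 and Hcn4 place 13674. The ranges of Hcn2 (39.3 to 76.4 FPKM) and Pex5l (22.9 to 51.8 FPKM) overlapped between libraries, although Hcn2 was above Pex5l within each library. Those of Pex5l, Hcn3 (3.72 to 6.02 FPKM) and Hcn4 (0.214 to 0.833 FPKM) did not overlap.

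Hcn2, one of the most widely expressed HCN subunits of the brain, was at 39.3, 41.5 and 60.8 FPKM in Con.-1 to Con.-3, at 50.3, 48.3 and 40.0 FPKM in PTZ-1 to PTZ-3, and at 76.4 and 41.3 FPKM in Q808-1 and Q808-2. The highest and the second highest library, Q808-1 and Con.-3, are both among those with high striatum markers, but PTZ-3, the other library of that set, held the second lowest level. The group means were 47.2 ± 11.8 FPKM in Con. (SD, n = 3), 46.2 ± 5.49 FPKM in PTZ (SD, n = 3) and 58.9 ± 24.8 FPKM in Q808 (SD, n = 2), and the libraries of every pair of groups overlapped. Between 1225 and 2379 reads lay behind each Hcn2 value. The coefficient of variation within groups was 11.9% to 42.2%, where counting alone gives 2.27% to 2.44%, so that the spread between rats was several times the counting error.

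Pex5l, whose product TRIP8b is known to control the amount and place of HCN channels in dendrites, was at 22.9, 29.9 and 44.0 FPKM in the Con. libraries, at 33.1, 36.9 and 26.2 FPKM in the PTZ libraries, and at 51.8 and 31.3 FPKM in the Q808 libraries, in the order of their numbers. Q808-1 and Con.-3 were again the highest, and PTZ-3 was the second lowest after Con.-1. Group means were 32.3 ± 10.8 FPKM in Con. (SD, n = 3), 32.1 ± 5.39 FPKM in PTZ (SD, n = 3) and 41.6 ± 14.5 FPKM in Q808 (SD, n = 2). The values rested on 570 to 1144 reads, and the variation within groups of 16.8% to 34.9% again exceeded the 3.20% to 3.47% from counting.

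Hcn3, a subunit that forms slow channels with little response to cyclic AMP, was at 4.17, 5.15 and 4.23 FPKM in Con., at 3.88, 6.02 and 3.72 FPKM in PTZ, and at 3.94 and 4.91 FPKM in Q808. Unlike Hcn2 and Pex5l, it was not high in Con.-3 or Q808-1, and its highest level was in PTZ-2. The group means were 4.52 ± 0.550 in Con. (SD, n = 3), 4.54 ± 1.28 in PTZ (SD, n = 3) and 4.43 ± 0.687 in Q808 (SD, n = 2). With 106 to 223 reads per library, counting alone gives a variation of 7.91% to 8.43%, against 12.2% to 28.3% measured within groups.

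Hcn4, the main subunit of the sinoatrial node and strongly expressed in parts of the thalamus, was close to the lower limit of what these libraries measure. It was at 0.214, 0.360 and 0.718 FPKM in Con., at 0.280, 0.833 and 0.479 FPKM in PTZ, and at 0.472 and 0.515 FPKM in Q808. Only 12, 24 and 40 reads in Con., 17, 52 and 23 reads in PTZ and 23 and 30 reads in Q808 lay behind these values. The exact 95% Poisson intervals, which cover counting error only, were 0.163 to 0.448 FPKM for PTZ-1 and 0.622 to 1.09 FPKM for PTZ-2, so that these libraries of the same group differed by more than counting error. Group means were 0.430 ± 0.260 FPKM in Con. (SD, n = 3), 0.531 ± 0.280 FPKM in PTZ (SD, n = 3) and 0.493 ± 0.0301 FPKM in Q808 (SD, n = 2). In the Q808 group the variation of 6.11% was below the 19.5% from counting, so its small SD is no measure of precision. Since Hcn4 is strong in thalamus and medial habenula, which lie next to the hippocampus, both marker lists were set beside it. The mean log2 level of 9 thalamus markers was 0.59 to 1.84 and was lowest in PTZ-2, the library with the highest Hcn4 level. Of 7 medial habenula markers, only 3 had a mean level high enough to be tested, while Pou4f1, Gpr151, Tac2 and Irx2 were too low or not found. The list therefore measures habenula poorly. The 3 used, Chrnb4, Chrna3 and Nr4a2, had summed levels of 3.94 to 11.0 FPKM in Con., 2.75 to 62.2 FPKM in PTZ and 6.46 to 14.8 FPKM in Q808, none of them at 0. Their mean log2 level was highest in PTZ-2 at 1.81 and was 0.02 in Con.-3, which had the second highest Hcn4 level, and the part of these tissues in the Hcn4 values was not tested.

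**Figure D1:**
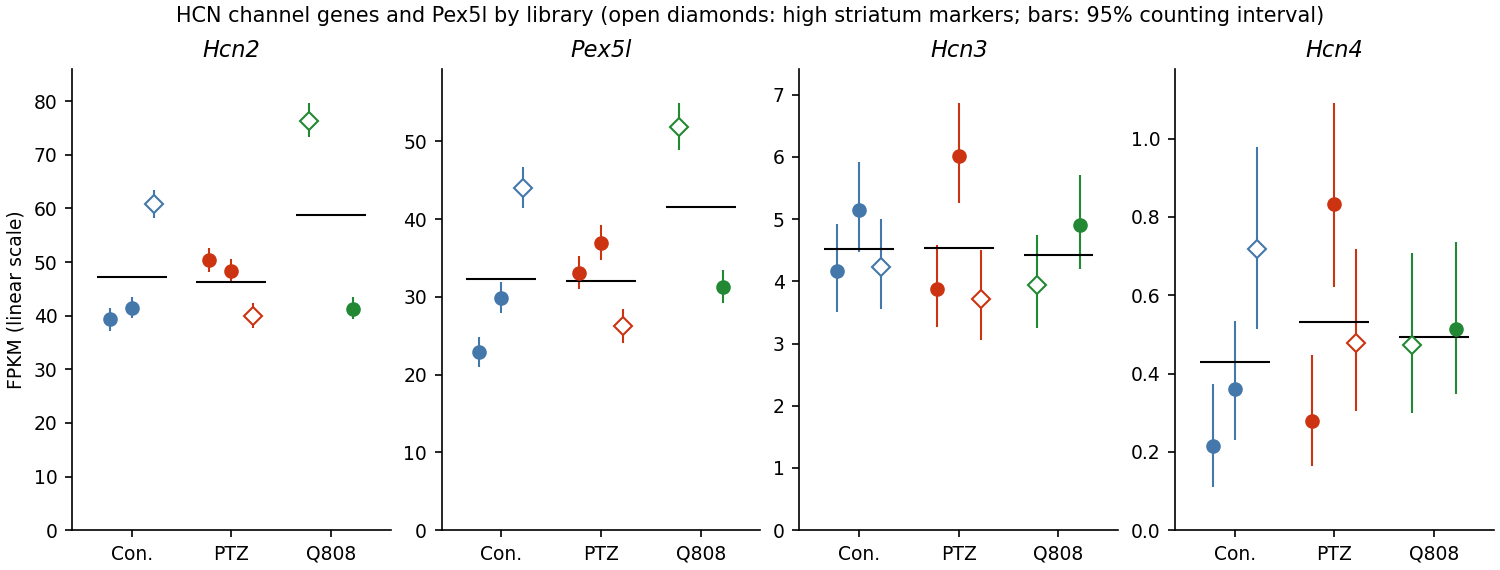
Level of each gene in FPKM on a linear scale from 0, with 1 marker per library in the order of the replicate numbers, for Con. (3 libraries), PTZ (3) and Q808 (2). Vertical bars are 95% counting intervals, horizontal lines are group means, and open diamonds mark Con.-3, PTZ-3 and Q808-1. For Hcn2 and Pex5l, the diamonds of Con.-3 and Q808-1 are the highest and that of PTZ-3 is among the lowest.

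Hcn2 made up most of the measured channel message in each library. Its share of the summed FPKM of Hcn2, Hcn3 and Hcn4 was 90.5% on average (87.6% to 94.5%), that of Hcn3 was 8.60% (4.88% to 11.0%) and that of Hcn4 was 0.893% (0.489% to 1.51%). By group, the Hcn2 share was 90.2% ± 2.11 in Con. (SD, n = 3), 90.1% ± 2.42 in PTZ (SD, n = 3) and 91.5% ± 4.35 in Q808 (SD, n = 2), which differ by less than the spread within groups. The sum itself ranged from 43.7 FPKM in Con.-1 to 80.8 FPKM in Q808-1. The ratio of Hcn2 to Hcn3 FPKM was lowest in PTZ-2 at 8.02 and highest in Q808-1 at 19.4. Q808-1 and Con.-3, which had the highest Hcn2 levels, held the lowest Hcn3 shares at 4.88% and 6.44%.

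Pex5l varied less against the summed channel genes than either did alone. The ratio of Pex5l FPKM to the summed HCN FPKM was 0.626 ± 0.0504 over all libraries (SD, n = 8), from 0.524 in Con.-1 to 0.67 in Con.-3 and Q808-2, while Pex5l itself ranged over 2.27-fold. Group means of the ratio were 0.610 ± 0.0764 in Con. (SD, n = 3), 0.623 ± 0.0398 in PTZ (SD, n = 3) and 0.656 ± 0.0203 in Q808 (SD, n = 2), within the spread of the Con. libraries.

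**Figure D2:**
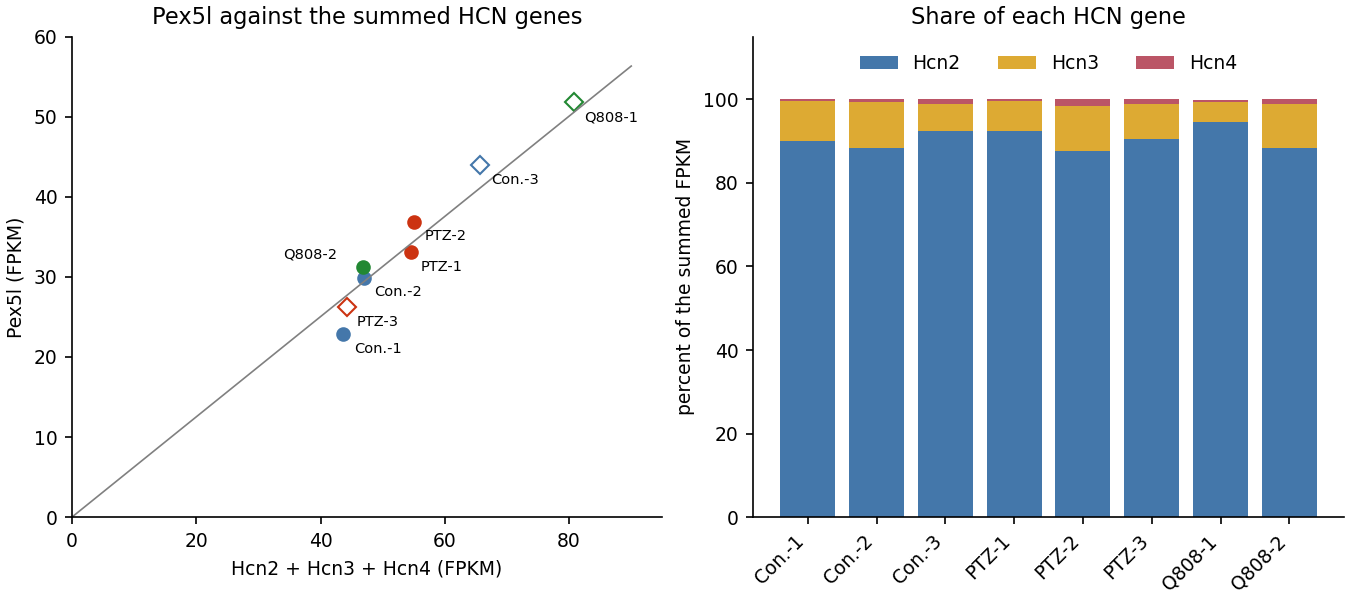
Left, Pex5l FPKM against the sum of Hcn2, Hcn3 and Hcn4 FPKM for the 8 libraries, coloured by group (blue Con., red PTZ, green Q808), with open diamonds for Con.-3, PTZ-3 and Q808-1 and a line through 0 at the mean ratio of 0.626. Right, share of each channel gene in that sum in percent, with 1 bar per library. All libraries lie near the line, and Hcn2 takes 87.6% to 94.5% of each bar.

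PTZ was compared with Con. to ask whether kindling moved these genes, and none of the 4 was called at an unadjusted p under 0.05 with more than 1.5-fold change, the limits under which 2.53% of all tested genes were called. The log2 fold change of FPKM + 0.1, on which scale the change of low genes is understated, was -0.01 for Hcn2 (SE 0.20, 95% interval -0.47 to 0.45), -0.02 for Hcn3 (SE 0.25, -0.60 to 0.56), 0.27 for Hcn4 (SE 0.50, -0.92 to 1.46) and 0.03 for Pex5l (SE 0.25, -0.57 to 0.63). The smallest unadjusted p was 0.613, for Hcn4, the adjusted p was 0.999 for each in limma, and the two-sided exact permutation p was 0.700 for Hcn4 and 1.00 for the others, where 3 libraries against 3 can reach 0.1 at the lowest. For Hcn2 the interval runs from 0.721-fold to 1.37-fold, and for Pex5l from 0.672-fold to 1.55-fold. That of Hcn4 runs from 0.527-fold to 2.75-fold, which holds both a 1.5-fold rise and a 1.5-fold fall. Libraries of both groups overlapped for all 4 genes, while 9.15% of all tested genes did not overlap. With the replicate number as a block, the count of called genes rose from 395 to 616 of 15593, and no gene of the 4 was called.

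The values of Hcn2 and Pex5l within the 2 sets of libraries pointed in opposite directions. Among the 5 libraries with low striatum markers, the log2 difference of PTZ from Con. was 0.29 for Hcn2 and 0.42 for Pex5l. Between PTZ-3 and Con.-3, which have no replicates, it was -0.60 for Hcn2 and -0.75 for Pex5l. Fitted without Con.-3, PTZ-3 and Q808-1, with 2 libraries in each group, the Hcn2 difference had an unadjusted p of 0.0179 and an adjusted p of 0.187 in limma. That of Pex5l had 0.0351 and 0.227. Both stayed below the 1.5-fold limit. In that fit 1530 of 15593 genes were called, against 395 with all libraries, and 140 had an adjusted p under 0.05, so that low p values were common there. Hcn4 was at 0.65 and -0.50 in the sets of 5 and 3, and Hcn3 at 0.06 and -0.18. Whether the difference between the sets of libraries goes beyond chance was not tested.

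Q808 was compared with PTZ to ask what the compound changed in kindled rats, and again none of the 4 genes was called, against 1.92% of all genes tested. The log2 fold change was 0.29 for Hcn2 (SE 0.29, 95% interval -0.40 to 0.98), 0.34 for Pex5l (SE 0.27, -0.31 to 1.00), -0.01 for Hcn3 (SE 0.31, -0.76 to 0.74) and 0.01 for Hcn4 (SE 0.50, -1.21 to 1.22). The smallest unadjusted p was 0.249, for Pex5l, the adjusted p in limma was 0.952 to 0.997 and the two-sided exact permutation p 0.500 to 1.00. The median of all genes lay at 0.10 in this comparison and at 0.01 after quantile normalization, under which Hcn2 was at 0.34 and Pex5l at 0.38. Median ratio scaling also brought that median to 0.01, but with Hcn2 at 0.20 and Pex5l at 0.25. Groups overlapped for all 4 genes, where 15.6% of genes tested did not. The rise in the means of Hcn2 and Pex5l rested on Q808-1. Without it, the log2 values were -0.15 for Hcn2 and -0.02 for Pex5l. Without Q808-2 they were 0.73 for Hcn2 and 0.71 for Pex5l, in a fit that assumes the lone Q808 library to vary like those of PTZ. Within the sets of 5 and 3 libraries, Hcn2 was at -0.25 and 0.93, Pex5l at -0.16 and 0.98, Hcn3 at 0.02 and 0.08 and Hcn4 at 0.05 and -0.02.

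Q808 against Con., which sets kindled and treated rats beside rats that had neither, likewise called none of the 4 genes, with 3.46% of all genes called. The log2 fold change was 0.28 for Hcn2 (SE 0.33, 95% interval -0.55 to 1.11), 0.37 for Pex5l (SE 0.35, -0.50 to 1.24), -0.03 for Hcn3 (SE 0.22, -0.57 to 0.51) and 0.27 for Hcn4 (SE 0.49, -0.95 to 1.5). The smallest unadjusted p was 0.330, again for Pex5l, the adjusted p was 0.901 to 0.983 in limma and the two-sided exact permutation p 0.400 to 0.900. All 4 genes overlapped between these groups as well, while 20.0% of genes did not. This comparison shares its libraries with the others, so it is no separate evidence. With all Con. libraries kept, the higher Q808 means of Hcn2 and Pex5l rested on Q808-1 here too. Without it the log2 values were -0.16 for Hcn2 and 0.01 for Pex5l, and without Q808-2 they were 0.72 and 0.73. With Con.-3 left out as well as Q808-1, Hcn2 was at 0.03 but Pex5l was still at 0.26. With the striatum list as covariate, Pex5l was at 0.35 (unadjusted p 0.0379, adjusted p 0.411 in limma) and Hcn2 at 0.26 (0.108 and 0.471). Both were below 1.5-fold, and 1169 genes were called in that striatum fit. With the thalamus list as covariate Hcn2 was at -1.86 (unadjusted p 0.0345, adjusted p 0.223 in limma), but the levels of that list do not overlap between Con. and Q808, so that list and group cannot be told apart. In that fit 2929 of 15593 genes were called, against 540 without the covariate. Hcn2 and Pex5l had the same sign in both sets of libraries, at 0.03 and 0.33 for Hcn2 and 0.26 and 0.24 for Pex5l in the sets of 5 and 3. Hcn3 was at 0.08 and -0.10, and Hcn4 at 0.70 and -0.52.

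**Figure D3:**
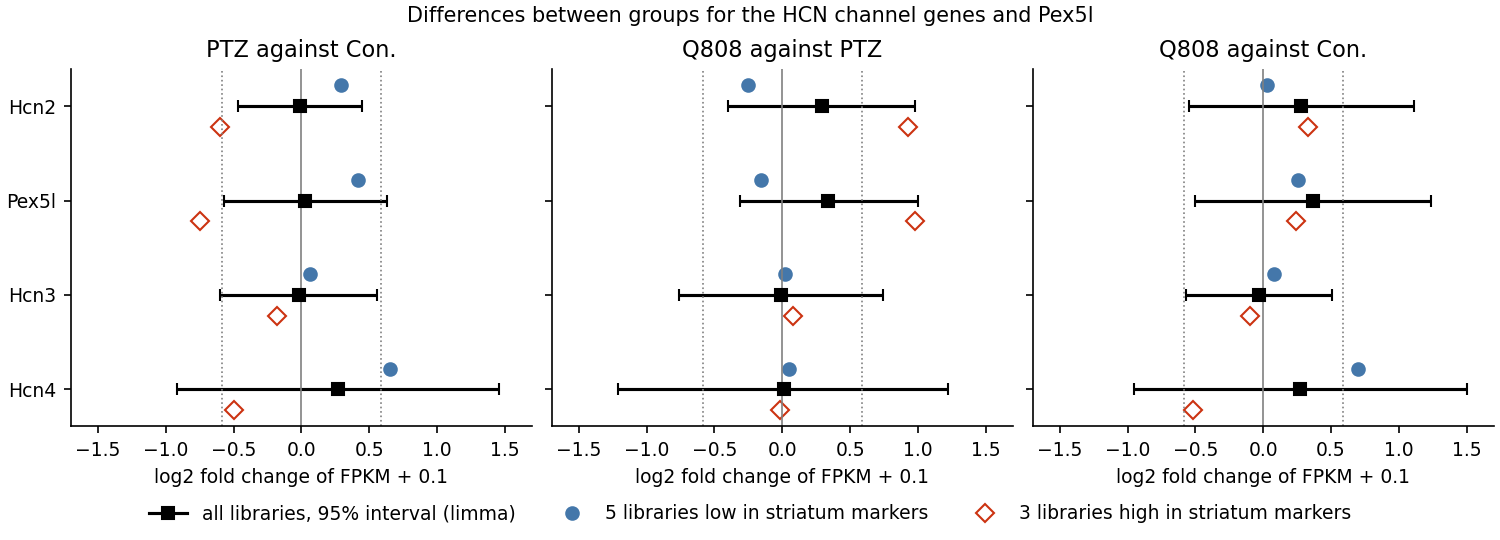
Log2 fold change of FPKM + 0.1 for the 4 genes in each comparison. Black squares are the limma estimates from all libraries with 95% intervals, blue circles the values within the 5 libraries low in striatum markers, red diamonds those within the 3 high libraries (1 per group, no replicates), and dotted lines mark 1.5-fold. Every interval spans 0, and for Hcn2 and Pex5l the circles and diamonds lie on opposite sides of 0 in the left and middle panels.

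Proteins that bind or regulate HCN channels were tested as a list of 12 genes, Pex5l included. A single gene was called in each comparison, all higher, where 2.53%, 1.92% and 3.46% of all tested genes were called. The median log2 fold change was 0.07 for PTZ against Con., 0.16 for Q808 against PTZ and 0.25 for Q808 against Con., beside -0.04, 0.10 and 0.04 for all tested genes. Flna, encoding the actin-crosslinking protein filamin A known to bind and gather HCN channels at the membrane, was at 4.36, 4.12 and 5.81 FPKM in Con., at 6.02, 9.17 and 9.71 FPKM in PTZ and at 11.4 and 12 FPKM in Q808. The 3 groups did not overlap. Of all tested genes, 9.15% did not overlap in PTZ against Con., 15.6% in Q808 against PTZ and 20.0% in Q808 against Con. Other genes of the list also did not overlap in some comparisons. Flna was higher in PTZ than in Con. (log2 fold change 0.78, SE 0.25, unadjusted p 0.0166, adjusted p 0.999) and in Q808 than in Con. (1.29, SE 0.21, unadjusted p 0.00120, adjusted p 0.901), and 0.52 higher in Q808 than in PTZ without being called (unadjusted p 0.0977). Flna is abundant in vessel walls, and the mean log2 level of an endothelium list of 4 genes was 3.74 to 3.81 in Con., 3.40 to 4.70 in PTZ and 3.92 to 4.88 in Q808. Its summed FPKM ran from 75.0 to 79.3 in Con., 60.9 to 143 in PTZ and 87.8 to 159 in Q808, no gene of it was listed at 0, and its part in the Flna result was not tested. The Flna call for PTZ against Con. was lost without Con.-1 (log2 fold change 0.72), Con.-2 (0.68) or PTZ-2 (0.69), and that for Q808 against Con. with the thalamus list as covariate (0.41).

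Kcne2, an accessory potassium channel subunit that can join HCN channels, was higher in Q808 than in PTZ (log2 fold change 2.10, SE 0.76, unadjusted p 0.0310, adjusted p 0.952). It was at 6.69, 4.54 and 0.819 FPKM in Con., at 0.701, 1.17 and 1.77 FPKM in PTZ and at 2.19 and 12.3 FPKM in Q808. Most of the Q808 mean came from Q808-2, and without that library the value was 0.88, which was not called. The call was also lost without PTZ-1 (1.79) or PTZ-2 (2.12), with all 3 groups in a joint fit (2.10, unadjusted p 0.0585), with all genes above 0 tested (2.10, unadjusted p 0.0645) and with the thalamus list as covariate (2.00, unadjusted p 0.210). The thalamus list was at 0.59 to 1.41 in PTZ and at 1.72 to 1.84 in Q808. These levels do not overlap, so that list and group cannot be told apart in that fit. The Kcne2 value rose to 3.32 without Q808-1 and to 3.62 without the 3 libraries high in striatum markers. Kcne2 is also a gene of choroid plexus epithelium. The mean log2 level of the choroid plexus list of 6 genes was 4.56, 4.66 and 0.98 in Con., 2.17, 1.65 and 2.73 in PTZ and 1.5 and 6.21 in Q808. Like Kcne2, the list was highest in Q808-2, Con.-1 and Con.-2. In Q808-1, however, Kcne2 was above every PTZ library while the list was below every PTZ library. The summed FPKM of that list ran from 92.4 to 2543 in Con., 278 to 490 in PTZ and 163 to 6458 in Q808. None of its genes was listed at 0, and its part in the Kcne2 result was not tested. Vapa, encoding an endoplasmic reticulum anchor protein, had the highest level of the list with a mean of 92.0 FPKM and was not called, with log2 fold changes of 0.17, -0.30 and -0.13 in the 3 comparisons.

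Enzymes that make cyclic AMP, the ligand of HCN channels, or break down cyclic nucleotides were mostly not called. Of all tested genes, 2.53% were called in PTZ against Con., 1.92% in Q808 against PTZ and 3.46% in Q808 against Con. At such shares, few calls in a short list are no result about these enzymes. Of 9 adenylyl cyclases, none was called in PTZ against Con. or Q808 against PTZ, and Adcy4 was called higher in Q808 against Con. (log2 fold change 0.68, SE 0.27, unadjusted p 0.0473, adjusted p 0.901). Adcy4 was low, at 1.19 to 1.37 FPKM in Con., 0.942 to 1.56 FPKM in PTZ and 2.51 and 1.82 FPKM in Q808. The endothelium list was at 3.74 to 3.81 in Con., at 3.90, 3.40 and 4.70 in PTZ-1 to PTZ-3 and at 4.88 and 3.92 in Q808-1 and Q808-2, and like Adcy4 it was highest in Q808-1 and, within PTZ, in PTZ-3. Its part in the Adcy4 result was not tested. The Adcy4 call held in 6 of 18 alternatives. It was lost without Con.-1 (0.72), Con.-2 (0.63), Con.-3 (0.70), Q808-1 (0.46) or the 3 libraries high in striatum markers (0.48), with a pseudocount of 1 (0.45), only genes averaging 1 FPKM or more (0.68), all 3 groups in a joint fit (0.68), quantile normalization (0.45), median ratio scaling (0.64) and the replicate block (0.70), and its sign turned with the thalamus list as covariate (-0.03). Adcy1, a calcium-stimulated neuronal cyclase and the highest of the list, was at 99.9, 119 and 39.2 FPKM in Con., 96.1, 83.8 and 34.5 FPKM in PTZ and 48.1 and 90.6 FPKM in Q808. Its 3 lowest values were those of Con.-3, PTZ-3 and Q808-1. The median log2 fold change of the cyclases was -0.09, 0.02 and 0.14 in the 3 comparisons (PTZ with Con. first, then Q808 with PTZ and with Con.), beside -0.04, 0.10 and 0.04 for all genes tested. None of 17 cyclic nucleotide phosphodiesterases was called in any comparison, 0 of them had an unadjusted p under 0.05 in limma, and their medians were -0.03, 0.23 and 0.10. The highest of them, Pde2a, a phosphodiesterase stimulated by cyclic GMP, had group means of 119 ± 36.7 FPKM in Con. (SD, n = 3), 114 ± 16.7 FPKM in PTZ (SD, n = 3) and 112 ± 7.62 FPKM in Q808 (SD, n = 2).

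Related channels were described in the same way, beside the shares of 2.53%, 1.92% and 3.46% of all tested genes called in the 3 comparisons. Of 14 genes of cyclic nucleotide-gated channels and KCNH potassium channels, relatives of HCN channels with a cyclic nucleotide-binding or homologous domain, 8 passed the filter on low values and none was called, with medians of -0.13, 0.04 and -0.09 in the same order. Kcnh1 alone had an unadjusted p under 0.05, in PTZ against Con. (log2 fold change -0.54, p 0.0149, adjusted p 0.999 in limma), and stayed below 1.5-fold. It is named here for that value. The highest, Kcnh3, was at 17.5 ± 1.18 FPKM in Con. (SD, n = 3), 17.8 ± 5.52 FPKM in PTZ (SD, n = 3) and 18.2 ± 1.17 FPKM in Q808 (SD, n = 2). Two-pore potassium channels carry the leak current against which Ih acts at rest, and 9 of 10 such genes were tested, with medians of 0.34, 0.21 and 0.23. Kcnk1, the TWIK-1 channel, was called higher in PTZ than in Con. (log2 fold change 0.71, SE 0.24, unadjusted p 0.0187, adjusted p 0.999), with 17.2, 19.1 and 18.2 FPKM in Con., 29.0, 42.1 and 21.8 FPKM in PTZ and 19.6 and 19.3 FPKM in Q808. Each PTZ library was above all others, and PTZ-2 was the highest. Of all tested genes, 9.15% did not overlap between PTZ and Con., and 15.6% did not between Q808 and PTZ. The Kcnk1 call was lost without PTZ-2 (0.47) or Con.-1 (0.68) and with the thalamus list as covariate (0.43). PTZ-2 had the lowest level of that list, 0.59, and what part thalamic tissue had in the Kcnk1 result was not tested. Between Q808 and PTZ the Kcnk1 difference of -0.61 was not called (unadjusted p 0.0750, adjusted p 0.952). Kcnk4, the mechanosensitive TRAAK channel, was called higher in Q808 than in Con. (log2 fold change 0.64, SE 0.20, unadjusted p 0.0202, adjusted p 0.901). It was at 4.50 ± 0.351 FPKM in Con. (SD, n = 3), 6.12 ± 0.574 FPKM in PTZ (SD, n = 3) and 7.09 ± 1.15 FPKM in Q808 (SD, n = 2). That call was lost without Con.-1 (0.59), Con.-2 (0.62), Q808-1 (0.47) or the 3 libraries high in striatum markers (0.53), with a pseudocount of 1 (0.55) and with quantile normalization (0.57), and its sign turned with the thalamus list as covariate (-0.05). Kcnk4 was already higher in PTZ than in Con. (0.43, unadjusted p 0.0434, adjusted p 0.999 in limma), below 1.5-fold, and Q808 differed from PTZ by 0.21 (unadjusted p 0.406). Kcnk9, named here for its p, was at 0.57 in Q808 against Con. (unadjusted p 0.0345, adjusted p 0.901 in limma), also below 1.5-fold. Pex5, the peroxisomal import receptor to which Pex5l is related, had a mean of 1.80 FPKM and was not called in any comparison.

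**Figure D4:**
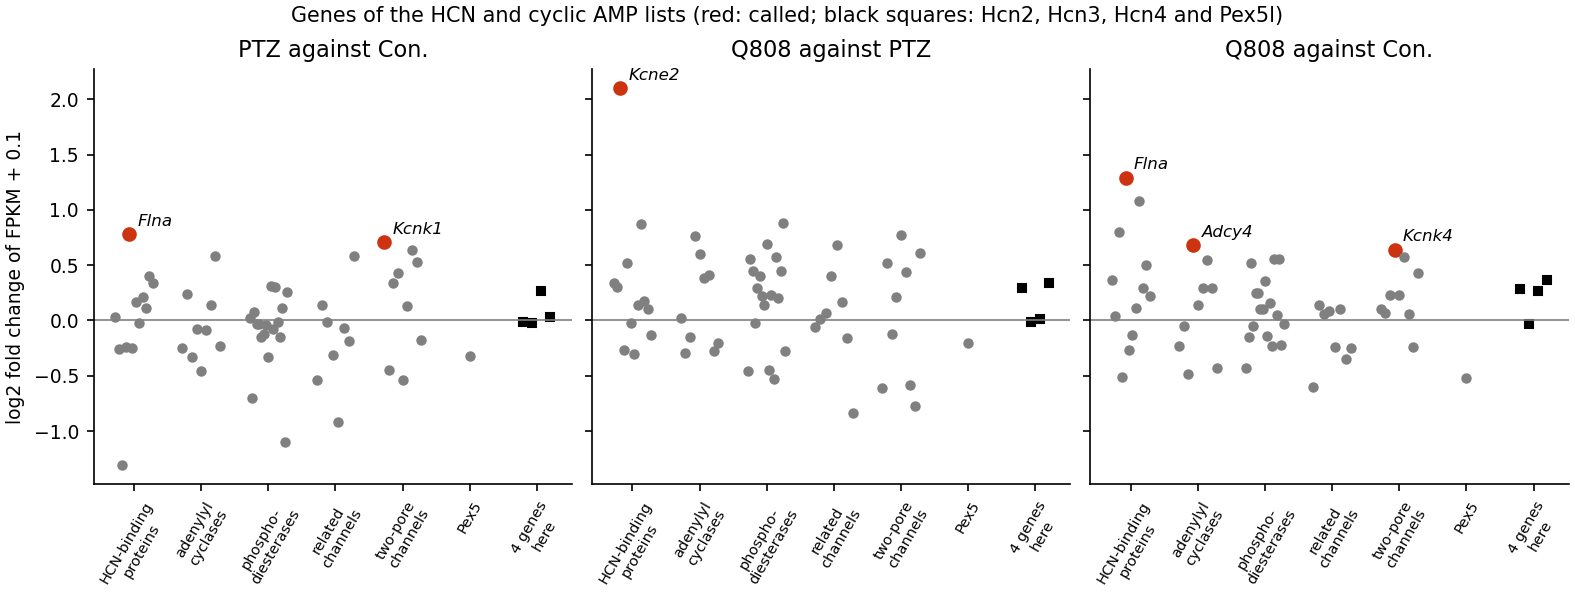
Log2 fold change of FPKM + 0.1 for each tested gene of the 6 lists and, as black squares, for Hcn2, Hcn3, Hcn4 and Pex5l in this order from left to right. Red circles are genes called at an unadjusted p under 0.05 with more than 1.5-fold change, and grey circles the others. Called genes are Flna and Kcnk1 for PTZ against Con., Kcne2 for Q808 against PTZ, and Flna, Adcy4 and Kcnk4 for Q808 against Con.

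Genes whose levels over the 8 libraries were most like each of the 4 were named by Pearson's r of log2(FPKM + 0.1), among genes with a symbol and a mean of at least 1 FPKM, 12381 for Hcn2, Hcn3 and Pex5l. The 8 libraries fall into sets of 5 and 3 with different tissue markers, so these r describe the libraries and carry no test. For Hcn2 they were Usp31 (r = 0.995), Dtna (0.961) and Znrf1 (0.955), with Pex5l at place 5 (0.942). For Pex5l they were Myo18a (0.981), Snx14 (0.975) and Pag1 (0.967), with Hcn2 at place 8. Over 0.9 lay 30 genes for Hcn2 and 33 for Pex5l, and 2 for Hcn3, whose closest genes were Cpeb3 (0.925), Atad3a (0.920) and Atp8a2 (0.895). Hcn4 was closest to Chrna5 (0.958), Bcar1 (0.933) and Lin7a (0.912), on 12 to 52 reads per library. Usp31, a deubiquitinase, ranged from 12.2 to 26.2 FPKM. Hcn3 was not like Hcn2 or Pex5l, with r of -0.228 and 0.031.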

How the data were processed

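Hippocampal mRNA of 8 rats was sequenced, with 1 library per rat. The authors trimmed reads with Trimmomatic and deposited Cufflinks FPKM per gene, the unit of all values used. The submitters' processing notes also list HISAT2, Bowtie2, StringTie, SAMtools, HTSeq and DESeq. The genome build is not given in the sources used here. Genes were taken by GeneID, and symbols came from the GRCr8 RefSeq table, used for names only (20633 of 22601 genes matched).

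Genes whose FPKM averaged 0.1 or more (15593) were tested on log2(FPKM + 0.1) with limma 3.58.1 in R 4.3.3 (empirical Bayes with a trend), each comparison on its own groups, with Benjamini-Hochberg adjustment over all of them. Tests ran beside Python 3.11.15 (numpy 2.4.6, pandas 2.3.3, scipy 1.17.1, matplotlib 3.10.9) for exact permutation tests, and simulated data with 200 changed genes were used to check the procedure. Calls needed an unadjusted p under 0.05 and more than 1.5-fold change. Whole reads (or read pairs, which FPKM cannot tell apart) were recovered from the steps of the FPKM in 15591 of the 15593 genes, within a tolerance of 0.01 reads, and gave relative depths of 0.854 to 1.19. Same-numbered Con. and PTZ libraries had positive correlations across genes of their deviations from the group means (0.309, 0.392 and 0.472). The labels do not say what a number marks. Con.-3 and PTZ-3 are both high in striatum markers, and this contrast can enter the correlations of all numbers. These values therefore cannot show that the numbers mark pairs, and the replicate block is given only as an alternative.

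Alternatives covered pseudocounts, filters on low values, scalings, designs, marker lists as covariates, the replicate block and libraries left out. Besides the 4 genes, called list genes were named, or else the gene of the list with the highest mean, and the 3 genes most like each of the 4. The 4 genes, the lists, the sets of libraries and the tests were chosen with earlier results of these data known.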

Additional observations from a re-analysis of the deposited data

How the results depend on the processing

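None of the 4 genes was called in the comparisons of all libraries, and over 217 alternatives for them the smallest adjusted p was 0.187. In 173 the direction and the side of the limits were kept, in 42 the sign turned, and in 2 a gene passed the unadjusted limits with its sign kept. These 2 were Hcn2 (0.73) and Pex5l (0.71) in Q808 against PTZ without Q808-2, a fit with a lone Q808 library. Among the 42, Hcn2 in Q808 against Con. with the thalamus list as covariate also passed the unadjusted limits (-1.86, unadjusted p 0.0345, adjusted p 0.223 in limma). In that fit 2929 of 15593 genes were called, against 540 without the covariate. The limits of the data are 2 or 3 rats per group, 3 libraries with other tissue markers, and 12 to 52 reads for Hcn4. A fit on the recovered reads with limma-voom, chosen after seeing the data, called 395, 359 and 572 genes in the 3 comparisons, against 395, 300 and 540, and again none of the 4 genes.

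For PTZ against Con., Hcn2 (-0.01) was at 0.03 with median ratio scaling, 0.01 with the striatum list as covariate and 0.29 without the 3 libraries high in striatum markers. Hcn3 (-0.02) was at 0.02 with quantile normalization and with median ratio scaling, and at 0.06 without those 3 libraries. Pex5l (0.03) was at -0.07 with the thalamus list as covariate. Leaving out each library in turn gave -0.13 to 0.19 for Hcn2, -0.24 to 0.10 for Hcn3, -0.06 to 0.64 for Hcn4 and -0.19 to 0.28 for Pex5l. The count of called genes was 219 with a pseudocount of 1, 626 with the striatum list, 1530 without the 3 libraries, and 249 to 1135 with each library left out.

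For Q808 against PTZ, leaving out the 3 libraries gave -0.25 for Hcn2, 0.02 for Hcn3 and -0.16 for Pex5l. Hcn3 (-0.01) was at 0.04 with the striatum and 0.67 with the thalamus list, and Hcn4 (0.01) at -0.02 with a pseudocount of 1, -0.23 with quantile normalization and -0.07 with median ratio scaling. Levels of the thalamus list do not overlap between PTZ (0.59 to 1.41) and Q808 (1.72 to 1.84). Covariate and group therefore cannot be told apart in the thalamus fit of this comparison. With each library left out, Hcn2 was at -0.15 to 0.73, Hcn3 at -0.16 to 0.21, Hcn4 at -0.31 to 0.34 and Pex5l at -0.02 to 0.71. The count was 193 at a mean FPKM of at least 1, 621 with the striatum list, 499 with the thalamus list, 1444 without the 3 libraries and 132 to 1569 with each library left out. Of the called genes 212 were higher and 88 lower, against 130 and 142 with quantile normalization and 194 and 103 with median ratio scaling.

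For Q808 against Con., the thalamus list as covariate gave -1.86 for Hcn2, 0.77 for Hcn3, -1.51 for Hcn4, -1.71 for Pex5l, -0.03 for Adcy4, -0.05 for Kcnk4 and 0.41 for Flna (unadjusted p 0.551 in limma, no longer called), and the list levels of 1.19 to 1.39 in Con. and 1.72 to 1.84 in Q808 do not overlap, so covariate and group cannot be told apart there. Hcn3 was at 0.08 without the 3 libraries. With each library left out, Hcn2 was at -0.16 to 0.72, Hcn3 at -0.19 to 0.13, Hcn4 at -0.05 to 0.64 and Pex5l at 0.01 to 0.73. The count was 340 with a pseudocount of 1, 1169 with the striatum and 2929 with the thalamus list, and 279 to 1799 with each library left out. Of the called genes 479 were higher and 61 lower, against 283 and 155 with quantile normalization and 401 and 97 with median ratio scaling. The cause of these changes was not tested.

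With the replicate number as a block, 616, 1894 and 1076 genes were called in the 3 comparisons. Hcn4 in Q808 against PTZ was then at -0.01, and no call on the 4 genes changed. For numbers 1 and 2, the correlations of deviations of the Q808 libraries were -0.439 and 0.416 with PTZ and -0.463 and 0.661 with Con. For no group do the labels say what a number marks.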
